A study of Mus musculus with 2 samples.

Results

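The 40 genes described here encode proteins that copy DNA, drive mitosis or divide the cell, and they were taken from a fixed list of gene symbols. All 40 were found among the 35208 gene rows of a single-cell RNA-seq count matrix from mouse ear skin with IgE-mediated chronic allergic inflammation (IgE-CAI). Ear skin of BALB/c wild-type (WT) mice and of Ccr2-/- mice, which lack the chemokine receptor that inflammatory monocytes use to leave the blood, was compared at days 3 and 5 after antigen. Both genotypes were given 300 µg of TNP-specific IgE by vein and, the next day, 10 µg of TNP-coupled ovalbumin in the right ear, so every group was sensitised and challenged and no unchallenged ear was analysed here. Each of the 4 groups, WT at day 3, WT at day 5, Ccr2-/- at day 3 and Ccr2-/- at day 5, was 1 pool of skin cells marked with its own hashtag antibody, and the pools were mixed for a single run loaded with 10000 cells. The number of mice behind a pool was not stated, Ccr2 was absent from all cells of the knockout rather than from 1 lineage, and with 1 pool for each genotype and day a difference between 2 pools cannot be told apart from a difference between genotypes or days. Cells were recovered from enzyme-digested ears at a density interface, so the shares below are shares of recovered cells.

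A dividing cell first builds nucleotides and loads the ring-shaped MCM helicase on its DNA, then copies the genome in S phase, and then enters mitosis when cyclin-dependent kinase 1 is switched on by its cyclins. Transcripts for DNA synthesis are made before and during S phase, mainly under E2F factors. Transcripts for mitosis accumulate later, in G2 and M, under the DREAM, MYB and FOXM1 complexes that act through the cell cycle genes homology region. Promoters with this region often hold CCAAT boxes as well. Healing and inflamed skin holds dividing fibroblasts, endothelial cells and keratinocytes, lymphocytes divide after activation, and mature neutrophils do not divide.

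Of the 40 genes, 13 act in replication: Pcna (the sliding clamp of DNA polymerase), Mcm2, Mcm3, Mcm4, Mcm5 and Mcm6 (helicase subunits), Gins2 (a helicase partner), Ccne1 and Ccne2 (cyclins E, which start S phase), Tyms (thymidylate synthase), Rrm1 and Rrm2 (ribonucleotide reductase) and Pclaf (a clamp-binding factor). Another 11 are mitotic kinases, cyclins and parts of the anaphase-promoting complex (APC/C): Cdk1, its cyclins Ccnb1, Ccnb2 and Ccna2, the kinases Plk1, Aurka and Aurkb, the checkpoint kinases Bub1 and Bub1b, and Cdc20 and Ube2c, through which the APC/C marks proteins for destruction. A further 11 build the spindle, the kinetochore and the cleavage furrow: Prc1, Kif20a and Kif23 (the midzone), Birc5 and Cdca8 (partners of Aurkb), Cenpe and Cenpf (kinetochore), Kif11, Nusap1 and Tpx2 (spindle microtubules) and Cdca3 (mitotic entry). The last 5 are Mki67 (the Ki-67 antigen), Top2a (the topoisomerase that untangles replicated DNA), Hmgb2 (a chromatin protein that many cells also make outside division), Mxd3 (a partner of MAX) and Pimreg.

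Promoter sequences of 5 members are shown because the replication and the mitotic members differed in the letters upstream of their start sites. They come from RefSeq for GRCm38.p6 and hold the 200 bases before the start, printed 5′ to 3′ on the strand of the gene. Capitals mark matches on either strand to TTTGAA, the core of the cell cycle genes homology region, to CCAAT, or to the E2F letters TTTCCCGC, TTTGGCGC and TTTGGCGG.
Cdk1 (chr10:69352913-69353112, reverse strand): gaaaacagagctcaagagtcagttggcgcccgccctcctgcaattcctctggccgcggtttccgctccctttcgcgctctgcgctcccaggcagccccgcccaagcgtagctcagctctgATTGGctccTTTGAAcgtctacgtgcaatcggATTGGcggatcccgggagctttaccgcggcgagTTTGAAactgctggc
Cdc20 (chr4:118437344-118437543, reverse strand): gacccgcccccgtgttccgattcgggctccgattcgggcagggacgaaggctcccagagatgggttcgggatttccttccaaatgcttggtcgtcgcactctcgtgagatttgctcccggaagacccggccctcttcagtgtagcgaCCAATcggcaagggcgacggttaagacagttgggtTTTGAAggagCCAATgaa
Top2a (chr11:99024190-99024389, reverse strand): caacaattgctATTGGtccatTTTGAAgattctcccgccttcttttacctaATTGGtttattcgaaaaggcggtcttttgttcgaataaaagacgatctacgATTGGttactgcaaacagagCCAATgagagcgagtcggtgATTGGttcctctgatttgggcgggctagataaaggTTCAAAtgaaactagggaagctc
Mcm5 (chr8:75109309-75109508, forward strand): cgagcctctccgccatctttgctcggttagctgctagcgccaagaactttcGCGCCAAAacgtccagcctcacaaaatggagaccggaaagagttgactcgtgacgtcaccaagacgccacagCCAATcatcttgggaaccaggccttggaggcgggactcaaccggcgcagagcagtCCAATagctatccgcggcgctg
Mcm6 (chr1:128359706-128359905, reverse strand): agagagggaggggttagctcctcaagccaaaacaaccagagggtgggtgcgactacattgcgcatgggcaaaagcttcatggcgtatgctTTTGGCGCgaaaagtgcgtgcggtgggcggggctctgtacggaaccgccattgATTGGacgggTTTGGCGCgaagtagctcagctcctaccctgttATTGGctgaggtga
Cdk1, Cdc20 and Top2a hold TTTGAA and CCAAT, and Mcm5 and Mcm6 hold CCAAT and TTTGGCGC and no TTTGAA.

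A window of 300 bases, 250 before and 50 after the start, was at hand for 32 of the 40 members. Not matched were Kif20a, Pimreg, Mcm4, Gins2, Ccne2, Ccna2, Aurkb and Tpx2. TTTGAA lay in the windows of 17 of the 32 members (53.1%), against 20.2% of the 27025 genes with a window, and all 17 also held CCAAT, a pair found in 7.97% of all genes. CCAAT, with or without TTTGAA, was in 27 members (84.4%, against 41.1% of all genes). By role, TTTGAA was in 1 of 10 replication members (Mcm2), 7 of 9 kinases, cyclins and APC/C parts, 6 of 9 spindle members and 3 of 4 chromatin members. The E2F letters were in 4 members, Mcm3, Mcm5, Mcm6 and Pclaf, or 12.5% against 2.39% of all genes. In Ube2c and Cdca8 matches overlapped each other. These are matches of letters only, and no binding was measured.

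After cells were assigned to 1 hashtag, 7118 of 8953 barcodes were kept: 1543, 1037, 2191 and 2347 in the pools as listed above (WT first, and day 3 before day 5, the pool order used below), with median depths of 39778, 48232, 34410 and 18632 reads. The counts are reads without molecular identifiers, so the 95% intervals below cover counting error only. Intervals of CPM take each read as independent, which copies of 1 molecule and reads of 1 cell are not, so they are too narrow. Ccr2, the deleted gene, was read at 796 CPM (reads of the gene in 1000000 reads of the cells summed) in WT day 3 macrophages and 607 CPM in WT day 5 macrophages, against 70.4 and 24.1 CPM in Ccr2-/- macrophages at days 3 and 5. In all cells together its level was 358, 350, 13.5 and 11.8 CPM in pool order, so the labels of the pools matched the gene, with residual reads in 13.3% and 11.5% of the Ccr2-/- cells. Cells were typed by fixed marker lists that hold none of the 40 genes. This gave 2207 fibroblast-like, 1028 macrophage-like, 289 dendritic-like, 330 NK-like, 156 T-like, 326 endothelial-like and 1207 neutrophil-like cells, called by these names without the suffix from here on. Because the gate used these markers, their levels describe it and do not check the names: Col1a1 reached 10425 CPM in fibroblasts and 287 in macrophages, C1qa 1021 CPM in macrophages and 2.10 in fibroblasts, Ncr1 480 CPM in NK cells and 0.302 in T cells, and Cd3e 647 CPM in T cells and 0.277 in NK cells.

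Among the gated types fibroblasts held the largest number of cells with mitotic genes, 363, and their share was larger in both Ccr2-/- pools than in both WT pools. By share they did not lead throughout: NK cells were above them in both WT pools, and over all pools keratinocytes, at 18.0% of 61 cells, were close to the fibroblasts' 17.3%. The 24 mitotic members (the kinase, spindle and cytokinesis groups with Mki67 and Top2a) were counted in each cell after thinning to 10000 reads, and a cell with a read of at least 5 of them is called a cell with mitotic genes below. By that count 38 of 387 fibroblasts of WT day 3 (9.82%, interval 7.04 to 13.2), 21 of 297 of WT day 5 (7.07%, 4.43 to 10.6), 153 of 794 of Ccr2-/- day 3 (19.3%, 16.6 to 22.2) and 151 of 618 of Ccr2-/- day 5 (24.4%, 21.1 to 28.0) had mitotic genes. The Ccr2-/- share was 1.96 times the WT share at day 3 and 3.46 times at day 5, and the intervals of the 2 genotypes did not overlap on either day. Averaged over days, 8.44% of WT and 21.9% of Ccr2-/- fibroblasts passed, 13.4 percentage points apart, and an exact two-sided permutation over pools, 2 against 2, gave p = 0.33, the smallest it can give.

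Fewer macrophages had mitotic genes: 6 of 381 (1.57%), 0 of 388 (a count of 0 allows up to 0.946%), 4 of 121 (3.31%) and 7 of 81 (8.64%) in pool order. The Ccr2-/- pools were above the WT pools here too, by 5.19 points, but the intervals at day 3 overlapped (0.580 to 3.40 in WT, 0.908 to 8.25 in Ccr2-/-). Dendritic cells and NK cells had the opposite order. In dendritic cells the counts were 6 of 101 (5.94%), 7 of 70 (10%), 1 of 38 (2.63%) and 1 of 66 (1.52%), and in NK cells 8 of 48 (16.7%), 5 of 24 (20.8%), 13 of 121 (10.7%) and 13 of 106 (12.3%). The difference of Ccr2-/- minus WT was thus -5.90 points in dendritic cells and -7.25 points in NK cells, and each again reached only p = 0.33 in the exact permutation test.

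T cells had mitotic genes in 4 of 36, 0 of 11, 4 of 50 and 1 of 39 cells, and endothelial cells in 6 of 84, 1 of 35, 3 of 80 and 7 of 81, with no order by genotype. Neutrophils, which should not divide, gave the background: 0 of 561 cells, which allows a share of up to 0.655%. These were 18, 2, 186 and 355 cells in pool order, so the background rested on the Ccr2-/- pools. The count of 0 in the WT pools alone allows up to 18.5% and 84.2%. All 1207 gated neutrophils had a median depth of 9539 reads, against 95425 in all gated fibroblasts. The thinned cells were compared at 1 depth, so cells under 10000 reads were left out, 646 of the neutrophils among them. Over all types these were 250, 105, 499 and 706 cells in pool order. Over all cells the share was 5.80%, 4.72%, 12.1% and 12.9%, a mean that also follows how many fibroblasts each pool held (405, 318, 827 and 657).

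**Figure D1:**
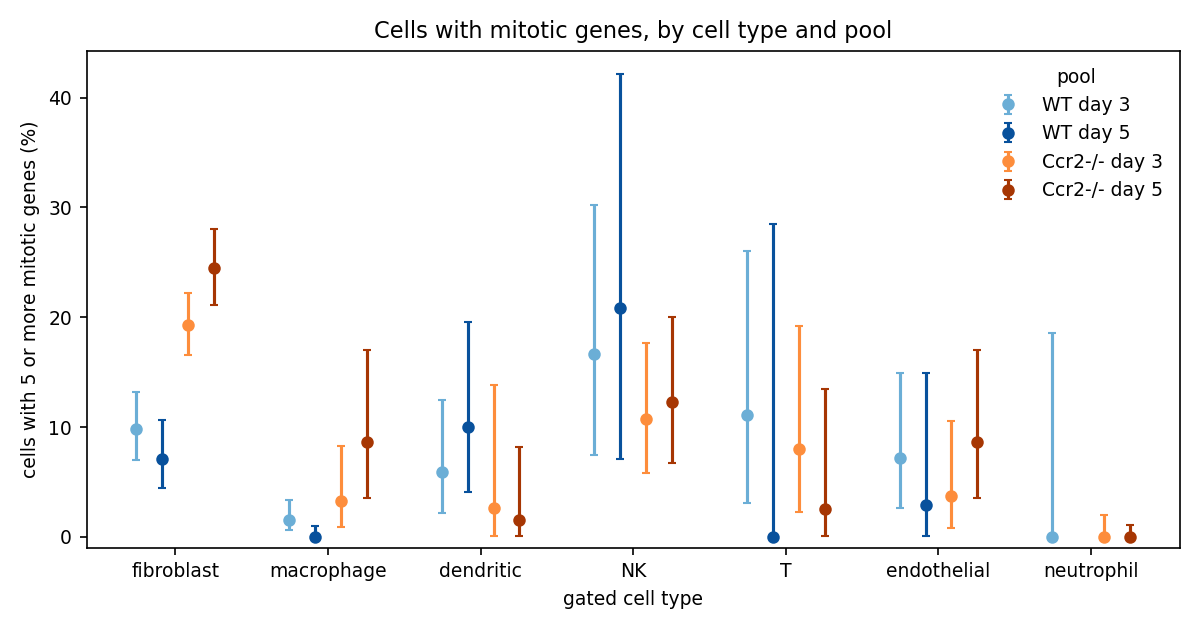
Share of cells with 5 or more of 24 mitotic genes (y axis, %) in 7 gated cell types (x axis), 1 point for each pool with its exact 95% binomial interval; neutrophils of WT day 5, with 6 cells, are left out. The Ccr2-/- fibroblasts sit at 19.3% and 24.4% above the WT fibroblasts at 9.82% and 7.07%, and the neutrophils sit at 0.

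Within a pool, fibroblasts exceeded macrophages in all 4 pools, by 11.8 ± 4.77 points (mean ± SD, n = 4 pools), and endothelial cells in all 4, by 9.55 ± 7.08 points. The exact sign-flip permutation test over 4 pools gave p = 0.13 for each of these 2 pairs, the smallest it can give, and 0.167 after adjustment over the 4 pairs of types tested. T cells had a smaller share than NK cells in 4 of 4 pools, with a difference of -9.71 ± 7.95 points and the same p. Dendritic cells were above macrophages in 2 of 4 pools, the WT ones, with a mean difference of 1.64 ± 7.29 points (exact permutation p = 0.75).

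The count of mitotic genes gave the fibroblasts a long tail, with no gap at the cutoff. Of 2096 fibroblasts, 1243 had a read of none of the 24 genes, 337 of 1, 83 of 2 and 39 of 3. On the 2 sides of the cutoff, 31 cells had exactly 4 and 31 exactly 5. From 6 to 11 genes there were 24, 29, 31, 23, 35 and 12 cells. Another 178 had 12 or more, which joins all higher counts. No neutrophil had more than 3 of the genes, and 8 of 971 macrophages and 22 of 299 NK cells had 12 or more. The plot of mitotic genes per cell shows this as a shoulder in fibroblasts and NK cells and a steep fall in neutrophils.

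**Figure D2:**
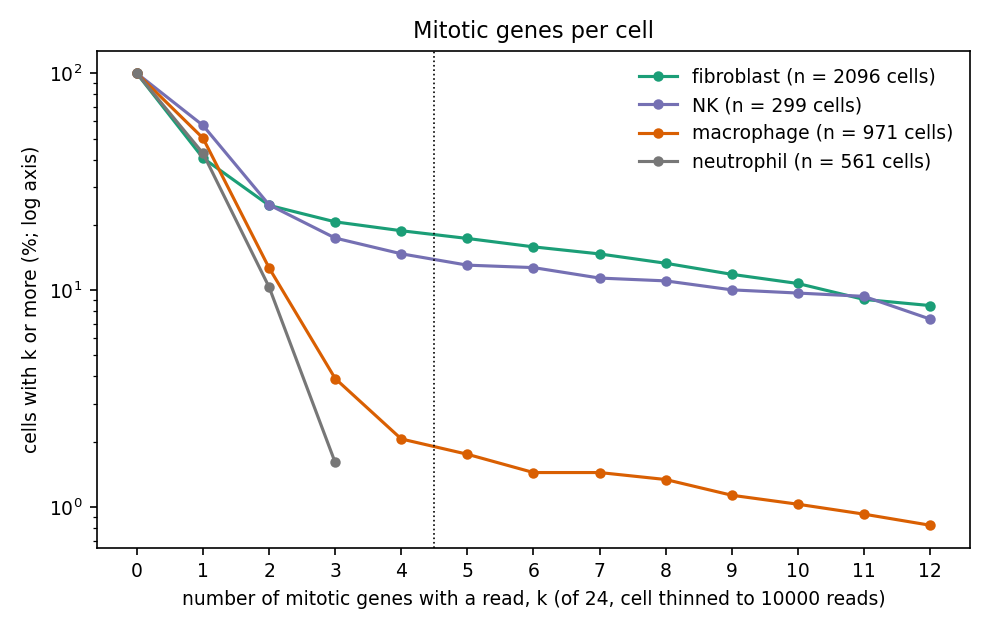
Percentage of cells (y axis, log scale) with at least k of the 24 mitotic genes (x axis) after thinning each cell to 10000 reads, for fibroblasts, NK cells, macrophages and neutrophils with all pools joined; the dotted line marks the cutoff of 5 genes. The curve of 2096 fibroblasts flattens, with 178 cells at 12 or more genes, and that of 561 neutrophils ends at 3.

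Fibroblasts with mitotic genes were deeper than the others, with a median of 200464 reads and 7286 genes against 87554 reads and 4664 genes. Scrublet marked 0 of these 363 cells as doublets and 6 of the 1733 others, too few marks to compare the 2 kinds. The macrophage-marker score (mean log2 level relative to all cells) had medians of -0.65 with mitotic genes and -0.79 in the other fibroblasts. Fibroblasts of the Ccr2-/- pools were also deeper overall (medians of 121029 and 111431 reads) than those of WT (66109 and 69600). After thinning to 30000 reads, where all cells are again at 1 depth, the 4 fibroblast shares were 14.5%, 10.5%, 24.1% and 30.9%. Without thinning they were 17.3%, 13.8%, 33.7% and 36.8%, those of macrophages 8.4%, 6.93%, 15.2% and 21.8%, those of dendritic cells 10.5%, 12.3%, 5% and 4.23%, and that of all neutrophils 0.0829%. The NK cells' shares without thinning were 15.1%, 19.2%, 13.6% and 16%, so there the genotypes overlapped. The 17 macrophages with mitotic genes had a median of 157996 reads against 55401, fibroblast-marker scores of at most 0.74 and 1 Scrublet mark, and the part of joined cells in their share was not tested further.

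Cells with replication genes were counted the same way, by a read of at least 5 of the 13 replication members. In fibroblasts the shares were 11.1%, 5.72%, 22.8% and 23.5% in pool order, in macrophages 1.05%, 0, 5.79% and 8.64%, in NK cells 16.7%, 4.17%, 22.3% and 26.4%, and in neutrophils 1 of 561 cells (0.178%) passed. The 2 sets of genes met in a cell as follows, given for pooled cells as a description with no test. Of 476 fibroblasts with either, 273 (57.4%) had both, 113 (23.7%) replication genes alone and 90 (18.9%) mitotic genes alone. Of 73 such NK cells, 30 (41.1%) had both, 34 (46.6%) replication genes alone and 9 (12.3%) mitotic genes alone. These NK counts differed by pool: replication genes alone were found in 2, 0, 16 and 16 NK cells in pool order, mitotic genes alone in 2, 4, 2 and 1, and both in 6, 1, 11 and 12. As shares of the 48, 24, 121 and 106 NK cells counted, replication genes alone were found in 4.17%, 0, 13.2% and 15.1%. Mitotic genes alone were found in 4.17%, 16.7%, 1.65% and 0.943%. The share with replication genes alone was thus higher in both Ccr2-/- pools than in both WT pools. More NK cells with mitotic genes alone than with replication genes alone were seen only in WT day 5, with 24 cells.

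The simpler measure first set for this gene list, a summed level of the 40 genes of at least 150 CPM in a cell, was passed by most cells of every type. It was reached by 70.4%, 61.0%, 81.0% and 78.8% of fibroblasts, 83.2%, 88.9%, 90.9% and 92.0% of macrophages, 92.4% to 96.2% of NK cells and 66.6% of neutrophils. By the count of mitotic genes 0 of 561 neutrophils passed. At the median depth of a neutrophil a single read was worth 105 CPM, against 10.5 CPM in a fibroblast, and Hmgb2 and Pcna made up 69.7% of the neutrophils' sum against 24.8% of the fibroblasts'. By this measure fibroblasts lay below macrophages, with a difference of -15.9 ± 8.09 points over 4 pools, the reverse of the count of mitotic genes. Member by member, the share of a gene's reads that lay in cells past 150 CPM on the other 39 genes ran from 88.7% (Pcna), 95.2% (Hmgb2) and 95.8% (Mcm4) to 99.7% (Ccna2, Ube2c and Bub1b). The same cells held most reads of any kind, 76.4% of all reads for the cells set by the genes other than Pcna, 81.4% for Hmgb2, 86.2% for Mcm4 and 87.2% to 87.3% for Ccna2, Ube2c and Bub1b.

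Summed over the reads of a type, the members' levels in fibroblasts followed the same order of pools for most genes. Among the replication members, Pcna, the sliding clamp, was at 209, 137, 243 and 211 CPM in pool order. The helicase subunit Mcm5 was at 31.5, 19.8, 52.1 and 44.9 CPM, and Rrm2, the regulated subunit of ribonucleotide reductase, at 51.2, 28.1, 80.3 and 81.5 CPM. Thus Mcm5 and Rrm2 were lowest in WT day 5 and highest in the 2 Ccr2-/- pools, with no overlap between genotypes, and for Pcna the Ccr2-/- day 5 pool and the WT day 3 pool were nearly level. Tyms, which makes thymidylate, was at 46.0, 32.0, 60.8 and 67.3 CPM.

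Of the mitotic kinases and their partners, Cdk1 was at 51.5 CPM (1950 reads), 36.8 (1074 reads), 77.9 (9057 reads) and 117 CPM (11199 reads). Its cyclin Ccnb1 was at 18.4, 19.5, 32.3 and 46.5 CPM, and Plk1, the kinase that matures the spindle poles, at 11.1, 6.78, 18.8 and 33.2 CPM. All 3 were highest in Ccr2-/- day 5, and the genotypes did not overlap. Cdc20, the activator of the APC/C, was at 16.9, 24.9, 27.9 and 52.0 CPM, so its 2 lower pools were both WT and its Ccr2-/- day 5 pool stood well above the rest. Ube2c, the ubiquitin-conjugating enzyme of the same complex, was at 54.4, 29.6, 61.6 and 111 CPM.

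The spindle group had the same shape. Birc5 (survivin) was at 50.1, 44.6, 73.2 and 108 CPM, Prc1, which bundles the midzone microtubules, at 44.8, 32.5, 66.3 and 85.8 CPM, and the spindle motor Kif11 at 16, 12.5, 19.4 and 22.6 CPM. Cenpf, of the outer kinetochore, was at 15.6, 20.7, 21.5 and 34.9 CPM, with WT day 5 and Ccr2-/- day 3 nearly level. Among the chromatin members, Mki67 was at 53.1, 36.4, 62.6 and 88.4 CPM, Top2a at 70.5, 46.3, 93.3 and 108 CPM and Hmgb2 at 189, 161, 229 and 296 CPM. The groups' sums in fibroblasts were 676, 405, 860 and 804 CPM for replication, 255, 207, 371 and 581 CPM for the kinases, 296, 262, 386 and 560 CPM for the spindle and 350, 272, 436 and 562 CPM for chromatin.

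In macrophages the mitotic members were lower in the WT pools than in the Ccr2-/- pools, by gaps that differed from gene to gene. Cdk1 was at 2.50 CPM (60 reads, interval 1.91 to 3.22), 4.62 CPM (115 reads, 3.81 to 5.54), 44.8 CPM (499 reads, 41.0 to 48.9) and 31.9 CPM (225 reads, 27.9 to 36.4). Plk1 had 3, 9, 139 and 49 reads, or 0.13, 0.361, 12.5 and 6.95 CPM. Both genes were thus read at under 5 CPM in the WT pools, and the genotypes did not overlap. Other mitotic members were read in WT as well: Cdca8, a partner of Aurkb, was at 15.6, 12.5, 34.4 and 49.4 CPM and Kif23 at 8.42, 5.98, 14.3 and 17.3 CPM. In the Ccr2-/- pools, with 132 and 87 macrophages, the Cdk1 reads came from 13 and 14 cells and the Plk1 reads from 5 and 6. Mitotic genes were found in 4 and 7 macrophages of these pools. Ccnb1 was at 2.54, 1.65, 17.9 and 19.0 CPM, Cdc20 at 4.5, 1.20, 13.1 and 12.6 CPM, Birc5 at 13.3, 6.38, 19.8 and 50.9 CPM and Prc1 at 4.59, 2.85, 29.3 and 27.9 CPM. Kif11, at 6.34, 3.17, 9.70 and 10.6 CPM, and Cenpf, at 3.42, 2.85, 18.7 and 15.9 CPM, had the same order of genotypes. Pcna, Mki67 and Hmgb2 were read in WT macrophages as well, with Pcna at 193, 201, 290 and 387 CPM, Mki67 at 49.0, 78.1, 84.9 and 143 CPM, and Hmgb2 at 176, 119, 134 and 222 CPM, with an overlap of the genotypes for Hmgb2.

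The other fixed members in macrophages were Mcm5 at 11.8, 8.11, 30.6 and 39.9 CPM, Tyms at 10.0, 6.86, 13.1 and 25.7 CPM, Rrm2 at 8.92, 3.89, 19.7 and 79.3 CPM and Top2a at 13.7, 7.91, 44.7 and 65.0 CPM. In NK cells the replication and mitotic members came apart by pool. Mcm5 was at 251, 2.52, 197 and 162 CPM, so it was almost missing from the 26 NK cells of WT day 5, and Plk1 was at 60.8, 54.1, 0.944 and 6.08 CPM, so it was low in both Ccr2-/- pools. Hmgb2 was at 1683, 1946, 1018 and 1113 CPM and Mki67 at 303, 623, 158 and 157 CPM. For Plk1, Hmgb2 and Mki67 the NK pools of the 2 genotypes did not overlap, with WT above.

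**Figure D3:**
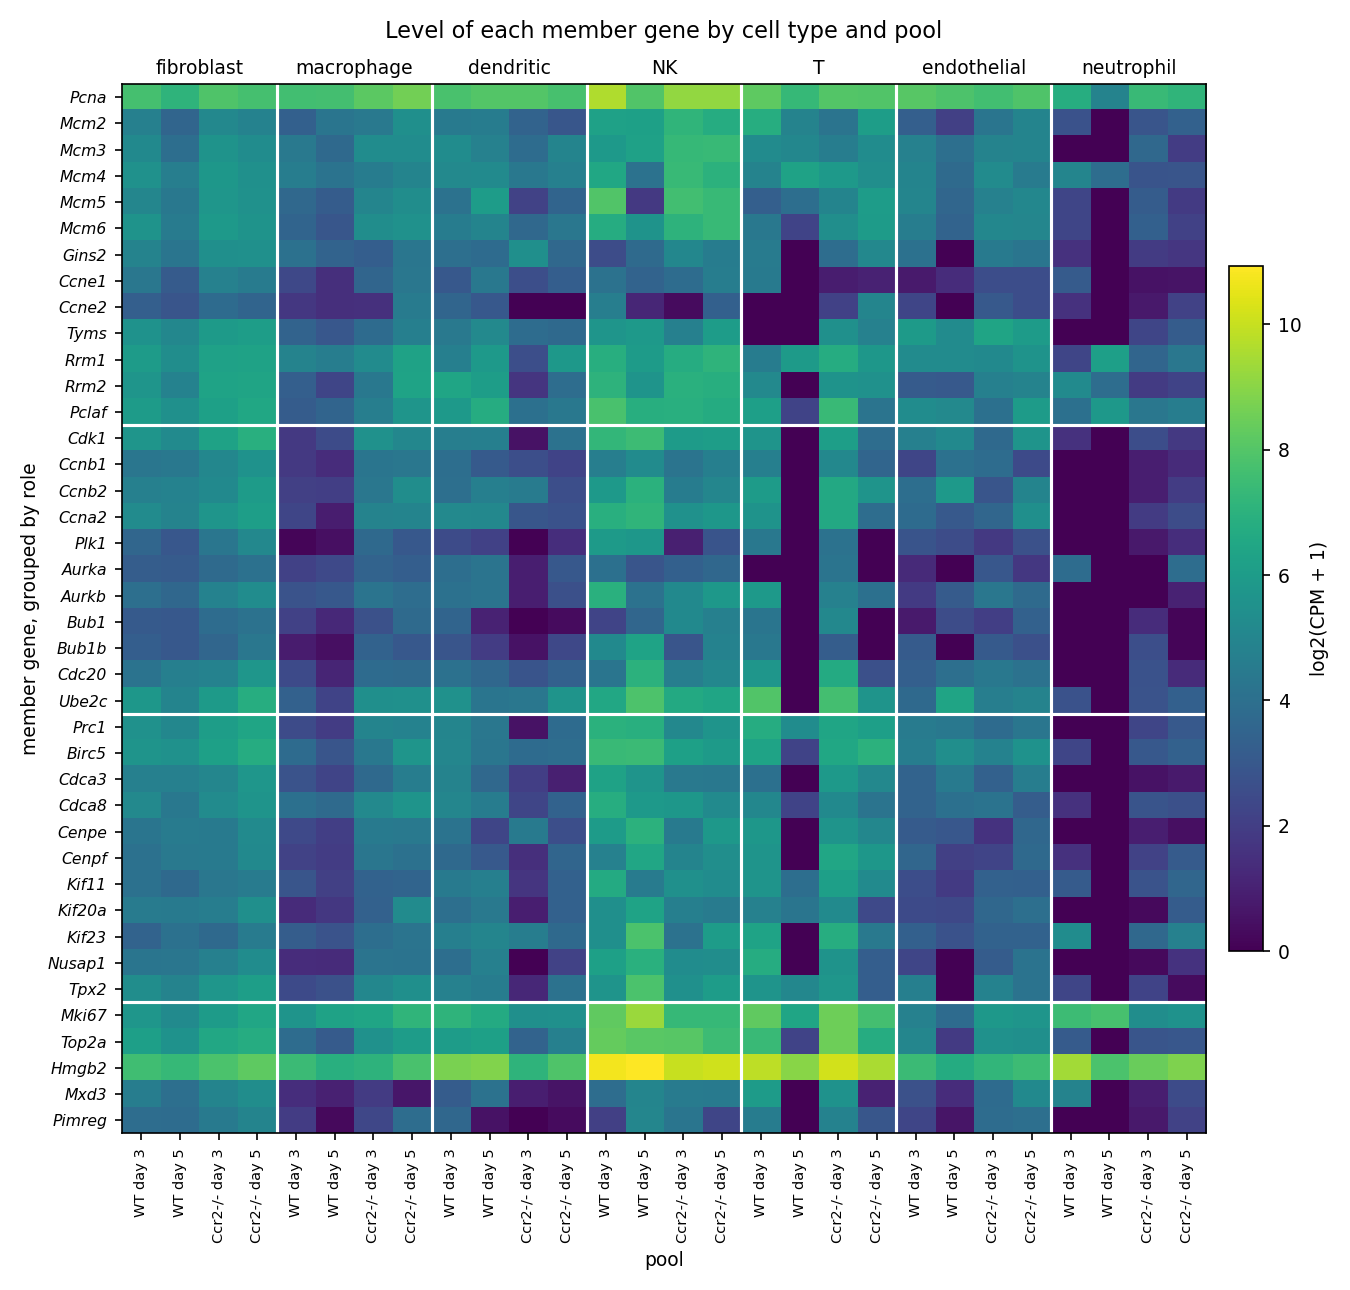
Level of each of the 40 genes, as log2(CPM + 1) by colour, in rows grouped by role and in columns for 7 gated cell types with 4 pools each. NK cells are brightest for most genes, neutrophils are darkest for 34 of the 40, and in macrophages the mitotic rows brighten in the 2 Ccr2-/- columns.

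Ordered by the mean of 4 pools, NK cells were highest of the 7 types for 31 of the 40 genes, fibroblasts for 6 (Gins2, Ccne1, Ccne2, Ccnb1, Aurka and Pimreg), T cells for 2 (Cenpf and Mxd3) and endothelial cells for 1 (Tyms). Neutrophils were lowest for 34. For Cdk1 the order ran from NK cells at 114 ± 58.6 CPM (mean ± SD, n = 4 pools) through fibroblasts at 70.7 ± 35.1, T cells at 33.4 ± 32.0, endothelial cells at 31.0 ± 15.6, macrophages at 21 ± 20.8 and dendritic cells at 16.7 ± 11.6 to neutrophils at 2.36 ± 2.06. By mean ± SD, NK cells overlapped fibroblasts and T cells, and fibroblasts also overlapped T cells, endothelial cells and macrophages. T cells, endothelial cells, macrophages and dendritic cells overlapped each other. By the same measure neutrophils overlapped macrophages and T cells, but not dendritic cells, endothelial cells, fibroblasts or NK cells. Single pools did overlap: in Ccr2-/- day 3 the dendritic cells were at 0.435 CPM and the neutrophils at 5.01 CPM. For Mki67, NK cells at 310 ± 219 CPM and T cells at 239 ± 122 CPM led. The neutrophils' mean for Mki67, 120 ± 89.0 CPM, rested on the WT pools, at 180 CPM (94 reads from 2 cells) and 212 CPM (15 reads from 1 of 6 cells). In the Ccr2-/- pools the neutrophils, at 40.3 and 46.6 CPM, were below the fibroblasts at 62.6 and 88.4 CPM, as they were with the pools summed (50.6 against 67.4 CPM).

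Within fibroblasts the mitotic members were held by the cells with mitotic genes, and the replication members were spread more widely. Since the members themselves define these cells, this is a description: for each gene, the cells were split by the other mitotic genes. A median of 90% (77.7 to 92.7) of the summed CPM of the kinase group lay in the 17.3% of fibroblasts with mitotic genes, 84.7% (81.0 to 90.7) of the spindle group, 87.5% (66.8 to 92.4) of the chromatin group and 57.4% (38.7 to 78.9) of the replication group. Ube2c (92.7%), Pimreg (92.4%) and Plk1 (92.2%) were the most concentrated, and Mcm4 (38.7%), Mcm3 (41.7%) and Pcna (41.9%) the least. Top2a averaged 289 CPM in fibroblasts with mitotic genes and 12.4 CPM in the others, whereas Pcna averaged 415 and 134 CPM and Hmgb2 634 and 76.4 CPM.

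In NK cells Ccna2, the cyclin of S phase and mitosis, was as concentrated (98.2%), but the helicase subunit Mcm2 was not (13.7%), with 103 CPM in NK cells with mitotic genes and 119 CPM in those without. In macrophages 83.9% of Plk1 and 53.9% of Cdk1 lay in the 1.75% of cells with mitotic genes, against 5.78% of Pcna, 7.71% of Hmgb2 and 12.7% of Mki67.

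**Figure D4:**
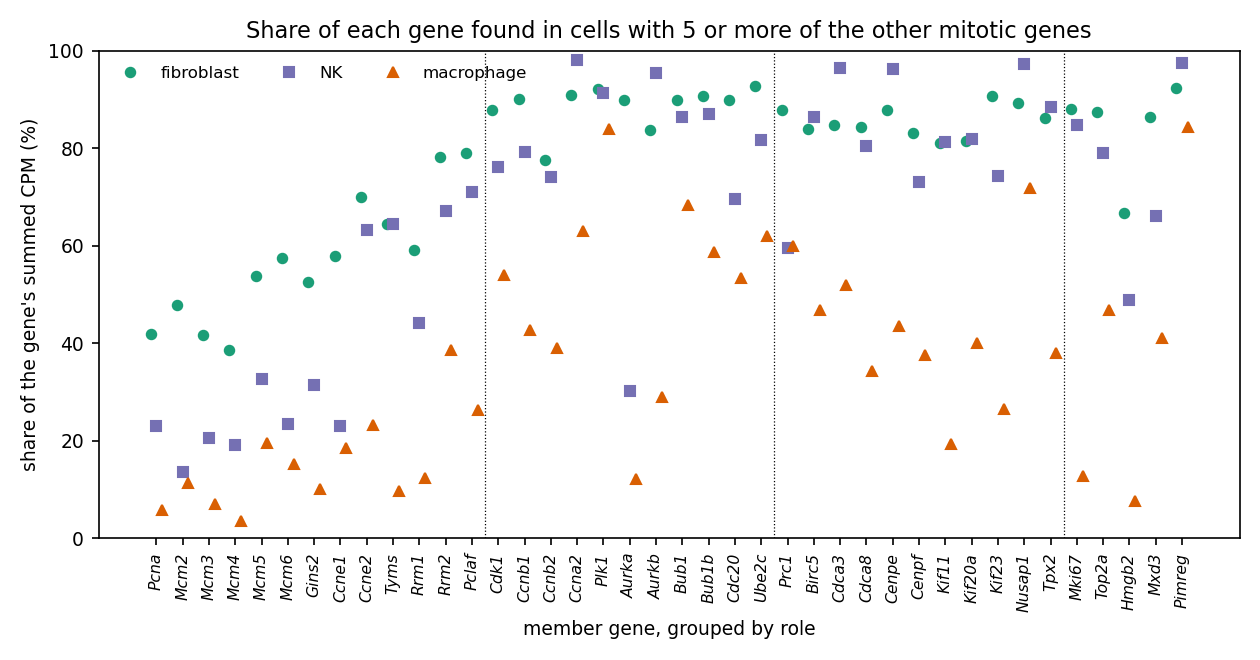
Share of each gene's summed CPM (y axis, %) found in cells with 5 or more of the other mitotic genes, for 40 genes grouped by role (x axis) in fibroblasts (circles), NK cells (squares) and macrophages (triangles). The fibroblast circles of the replication genes run from 38.7% to 78.9%, and those of the kinase group from 77.7% to 92.7%.

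Between types, fibroblasts had higher levels than macrophages for 33 of the 40 members in edgeR's quasi-likelihood test on the summed reads of 8 columns, with the pool as a block and Benjamini-Hochberg adjustment over all genes. In the same comparison 23.2% of the 19468 genes tested were higher in fibroblasts and 16.9% in macrophages, and no member was higher in macrophages. Called were 11 of 11 kinases, cyclins and APC/C parts, 9 of 13 replication members, 9 of 11 spindle members and 4 of 5 chromatin members, with a median log2 fold of 1.77 over the 40 against 0.09 over all genes. Mxd3 had the largest log2 fold (4.23 ± 0.41 SE, edgeR adjusted p = 0.000276), followed by Plk1 (3.09 ± 0.87, adjusted p = 0.0286) and Pimreg (2.78 ± 0.70, adjusted p = 0.0185). Pcna (-0.25), Mki67 (-0.39), Mcm2, Mcm3, Ccne2, Cdca8 and Kif23 did not pass. The members' median log2 ratio was 1.94 and 2.13 in the WT pools and 0.81 and 0.80 in the Ccr2-/- pools. Without the WT day 3 pool, 18 members were called higher.

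Fibroblasts against endothelial cells, a comparison that shares its fibroblast columns with the last, gave 28 of 40 members higher in fibroblasts (13.1% of the 18057 genes tested) and none higher in endothelial cells (9.27%). Here 7 of 13 replication members, 7 of 11 kinases, cyclins and APC/C parts, 9 of 11 spindle members and 5 of 5 chromatin members passed. Ccne1, the cyclin that starts S phase, led with a log2 fold of 3.03 ± 0.50 (edgeR adjusted p = 0.00430), before the spindle-pole kinase Aurka (2.66 ± 0.68, adjusted p = 0.0286) and Nusap1, which binds spindle microtubules (2.40 ± 0.59, adjusted p = 0.0250). Pcna (-0.01) and Tyms (-0.02) did not pass. The median log2 ratio of the members lay between 1.0 and 1.2 in each of the 4 pools, and leaving out the WT day 3, Ccr2-/- day 3 or Ccr2-/- day 5 pool left 12, 15 and 10 members called.

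Dendritic cells and macrophages differed in no member by edgeR at an adjusted p under 0.05, where 5.90% of the 14927 genes tested were higher in dendritic cells and 7.04% in macrophages. At an unadjusted p under 0.05 there was 1 member (Hmgb2, log2 fold 0.88), and DESeq2 called 1. The median log2 ratio of the members pointed in opposite directions by genotype, at 1.67 and 1.85 in the WT pools and -1.71 and -1.28 in the Ccr2-/- pools. T cells were lower than NK cells for 2 members, Pcna (log2 fold -1.19 ± 0.20, edgeR adjusted p = 0.0146) and the helicase subunit Mcm6 (-2.11 ± 0.47, adjusted p = 0.0484), and higher for none, beside 1.28% and 1.92% of the 10776 genes tested. With 13 T cells in the WT day 5 pool, in which all 11 members of the kinase group were at 0, the T cell values rest on few cells, and leaving out WT day 3, Ccr2-/- day 3 or Ccr2-/- day 5 left 0 members called.

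Of the other genes of the cell cycle, taken from lists of non-members, replication and mitosis genes were mostly higher in fibroblasts than in macrophages, and G1 and brake genes went both ways. In this comparison, where 23.2% of all genes were higher in fibroblasts and 16.9% lower, fibroblasts were higher for 16 of 25 further replication genes and 29 of 40 further mitosis genes, with 1 mitosis gene lower. The leading ones were Dut (2.71), Uhrf1 (2.47) and Tk1 (2.32), of nucleotide supply and maintenance methylation, and Melk (3.42), Ttk (2.93) and Cdca5 (2.56), of mitosis, all as log2 folds. Of 10 genes that drive G1, 4 were higher and 3 lower, among them the D cyclin Ccnd2 (4.17) and Myc (3.04) higher and E2f1 (-2.76) lower. Of 15 genes that brake the cycle, 5 were higher and 3 lower: the kinase inhibitor Cdkn1c (3.42) was higher, and the retinoblastoma gene Rb1 (-2.25) and Cdkn1a (-1.88) lower, in fibroblasts.

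Against endothelial cells fibroblasts were higher for 6 of 25 replication, 19 of 40 mitosis, 4 of 10 G1 and 5 of 15 brake genes, with 1 G1 gene and 2 brake genes lower. Rfc5 (2.01), Uhrf1 (1.72) and Tk1 (1.60) led the replication list, Kif22 (4.25), Aspm (4.06) and Ccnf (3.32) the mitosis list, Ccnd3 (1.47), Myc (1.42) and E2f1 (1.34) the G1 list, and Cdkn2b, Cdkn2c (2.07) and Cdkn1c (1.48) the brakes. Cdkn2b had 118, 50, 183 and 143 reads in the fibroblast pools and 0 in every endothelial pool, so it was at least 9.87-fold higher against a limit of 3 reads over all endothelial cells. Dendritic cells against macrophages had no replication or mitosis gene called by edgeR (0 and 3 at an unadjusted p under 0.05). Of the G1 genes 3 were higher, with Ccnd2 (3.81) and Ccnd1 (2.95) in the lead, and E2f1 (-2.28) was lower, and of the brakes Cdkn1b (2.17) and Cdkn2d (0.70) were higher. None of these genes was called between T and NK cells by edgeR, with 12 of the 25 replication genes and 6 of the 39 mitosis genes tested at an unadjusted p under 0.05.

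Between genotypes the level of every member was above WT in the Ccr2-/- fibroblasts of each day, by a median log2 ratio of (CPM + 1) of 0.42 at day 3 (0.05 to 0.84) and 1.16 at day 5 (0.46 to 2.13). Those are 40 of 40 members at day 3, where 46.6% of all genes were higher in Ccr2-/-, and 40 of 40 at day 5, where 51.3% were. At least 2-fold were 0 members at day 3 (0.897% of all genes) and 28 at day 5 (3.35%). At day 5 Plk1 had the largest ratio (2.13), then Ube2c (1.87), Aurkb (1.68) and Cdk1 (1.64), and the smallest were Kif23 (0.46), Pcna (0.62) and Ccne2 (0.65). By role the medians at days 3 and 5 were 0.40 and 1.05 for replication, 0.59 and 1.24 for the kinases, 0.29 and 0.97 for the spindle and 0.32 and 1.21 for chromatin.

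edgeR, with genotype and day in 1 model over 4 columns and 1 residual degree of freedom, called 0 members by genotype in fibroblasts, as it called 0% of the 20280 genes tested in either direction. The lowest adjusted p of a member was 0.107 (Ccnb1, log2 fold 1.06 ± 0.16 SE). At an unadjusted p under 0.05, 37 of 40 members were higher in Ccr2-/-, beside 10.9% of all genes, and DESeq2 called 32 of 40 higher at an adjusted p under 0.05, beside 5.58% of the genes it tested. The members' median log2 fold was 0.86 in edgeR and that of all genes 0.01. The largest log2 folds were those of Plk1 (1.54 ± 0.40), Aurkb (1.35 ± 0.25) and Cdk1 (1.16 ± 0.27), none of which passed the adjusted test in edgeR.

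**Figure D5:**
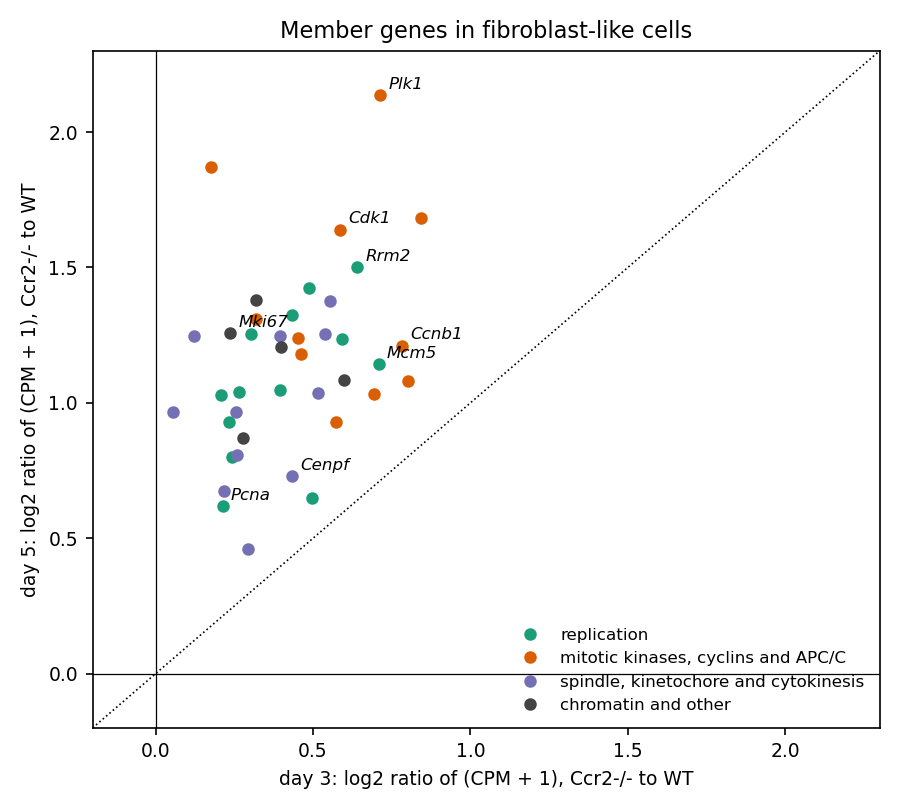
Log2 ratio of (CPM + 1), Ccr2-/- to WT, for the 40 genes in fibroblasts at day 3 (x axis) and day 5 (y axis), 1 point for each gene coloured by role, with the dotted line marking equal ratios. All 40 points lie above 0 on both axes and above the line, with Plk1 at 2.13 on the day 5 axis.

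Within the fibroblasts that had mitotic genes the genotype ratios had medians close to 0 and went both ways. When fibroblasts with mitotic genes were compared alone, the median log2 ratio of Ccr2-/- to WT was -0.03 at day 3 (18 of 40 higher, range -0.48 to 0.52) and 0.08 at day 5 (24 of 40 higher, range -0.81 to 1.16). In those cells Cdk1 was at 234, 206, 252 and 289 CPM, Top2a at 300.0, 258, 296 and 272 CPM and Mcm5 at 93.7, 83.6, 101 and 81.4 CPM, with overlapping genotypes for Top2a and Mcm5. In the remaining fibroblasts the medians were 0.20 (30 of 40 higher) and 0.43 (34 of 40), and there all 13 replication members were higher in Ccr2-/- on both days, with medians of 0.56 and 0.62. Mcm5 in these cells was at 16.1, 8.44, 33.0 and 22.4 CPM. The split used the members themselves, so these ratios carry no test.

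By day, replication members were mostly lower at day 5 in fibroblasts of both genotypes, and the kinase and spindle members were all higher at day 5 in the Ccr2-/- pools and went both ways in the WT pools, a difference that was not tested. In WT fibroblasts 32 of 40 members were lower at day 5 than at day 3, beside 52.4% of all genes, with a median log2 ratio of -0.46. All 13 replication members (median -0.65), 8 of 11 kinases, cyclins and APC/C parts (-0.26), 6 of 11 spindle members (-0.10) and 5 of 5 chromatin members (-0.53) were lower there. In Ccr2-/- fibroblasts 32 of 40 were higher at day 5 (median 0.37), beside 53.6% of all genes: all 11 kinases, cyclins and APC/C parts (median 0.58), all 11 spindle members (0.55) and all 5 chromatin members (0.41), against 5 of 13 replication members (-0.21). edgeR called 0 members by day in either direction, as it called 0% of 20280 genes, with 0 by DESeq2. At an unadjusted p under 0.05, 4 members were higher and 7 lower at day 5, beside 3.34% and 3.00% of all genes. The log2 fold of day 5 against day 3 was below 0 for all 13 replication members (median -0.42), and the largest above 0 were those of Kif23 (0.74 ± 0.16 SE), which drives cytokinesis, and Cdc20 (0.73 ± 0.14).

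In macrophages the genotype ratios were larger and rested on fewer cells. The gate took 26.2%, 39%, 6.02% and 3.71% of the cells of the pools as macrophages, in pool order, and these differed by genotype in more than the members. Lyve1, a gene of resident macrophages, was at 57.3, 32.1, 216 and 275 CPM in them, and the monocyte genes Ly6c2 at 363, 50.3, 105 and 30.8 CPM and Plac8 at 498, 104, 108 and 21.3 CPM. So Lyve1 was higher in both Ccr2-/- pools, and the monocyte genes were lower in Ccr2-/- than in WT on each day. Mrc1, at 4285, 2827, 4955 and 4603 CPM, was also higher in both Ccr2-/- pools. Folr2, at 227, 424, 407 and 438 CPM, and C1qa, at 656, 1161, 1156 and 1553 CPM, did not separate the genotypes. Mrc1 and C1qa are markers of the gate. The part of this makeup in the ratios was not tested. The median log2 ratio of (CPM + 1) of Ccr2-/- to WT was 1.25 at day 3, with 36 of 40 members higher (48.5% of all genes) and 24 at least 2-fold (5.74%), and 2.46 at day 5, with 39 higher (49.1%) and 32 at least 2-fold (8.57%). The exceptions at day 3 were Gins2 (-0.81), Hmgb2 (-0.40), Ccne2 (-0.26) and Mcm4 (-0.01), and at day 5 Mxd3 (-0.35). edgeR called 0 members, as it called 0% of the 16197 genes tested, with 33 of 40 at an unadjusted p under 0.05 (7.72% of all genes) and 28 higher by DESeq2 (2.78%). The members' median log2 fold was 1.98, and the role medians were 3.17 for the kinases, 2.50 for the spindle, 1.34 for replication and 0.87 for chromatin. By day it called 0 members and 0% of all genes, with 3 members higher at day 5 at an unadjusted p under 0.05 (4.37% of all genes), 0 lower (4.26%) and 0 by DESeq2.

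Dendritic and NK cells had the opposite sign for most members, as described for their shares of cells with mitotic genes. In dendritic cells 36 of 40 members were lower in Ccr2-/- than in WT at day 3 (median log2 ratio -2.16), beside 52.7% of all genes, and 35 at day 5 (-0.98), beside 53.9%. In NK cells 29 were lower at day 3 (-0.70), beside 49.6% of all genes, and 24 at day 5 (-0.66), beside 46.9%, but 12 of 13 replication members were higher in Ccr2-/- NK cells at day 5 (median 1.15), beside 53.1% of all genes, and the WT pool there held 26 NK cells. These ratios were not tested, and the Ccr2-/- values of dendritic cells came from 40 and 71 cells. Dendritic cells made up 6.80%, 7.04%, 1.83% and 3.03% of the cells of the pools, and Ly6c2 was at 335, 204, 116 and 164 CPM in them, higher in both WT pools. The part of this in the ratios was not tested either.

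The same non-member lists were read in fibroblasts with mitotic genes against the other fibroblasts, as a description. At least 2-fold higher in every one of the 4 pools were 39 of 40 mitosis genes, 20 of 25 replication genes, 0 of 10 G1 genes and 3 of 15 brakes, beside 2.59% of the 14683 genes at 1 CPM or more. In turn, 2 brakes were at least 2-fold lower in every pool, beside 1.65%. Hmmr, a spindle assembly factor, had a median log2 ratio of 5.25 (4.87 to 5.77), Spc25 4.66 and the centrosome kinase Nek2 4.60. Of the replication list, Tk1, which salvages thymidine, had 4.05, Uhrf1 2.69 and the ligase Lig1 2.32. Of the G1 list, E2f2 had 1.60, Ccnd2 -1.41 and E2f1 1.28.

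The brakes went both ways in these fibroblasts: Rbl1 (2.43) and Cdkn2c (2.29) were higher in cells with mitotic genes, and Cdkn1c (-2.12, from -2.37 to -2.03) and Btg2 (-1.73) lower. Cdkn1c, which encodes the inhibitor p57, was at 41.0, 57.2, 23.9 and 30.0 CPM in fibroblasts with mitotic genes and at 191, 239, 128 and 126 CPM in the others, with no overlap in the 4 pools. In both kinds of fibroblast the Ccr2-/- pools were below the WT pools for this gene. In NK cells, where 2 pools could be used, 34 of 40 mitosis genes and 6 of 25 replication genes were at least 2-fold higher in both, beside 4.10% of all genes, with Hmmr, Kif2c and Nuf2 in the lead and Tk1 at a median log2 ratio of 2.69. Hmmr was at 98.2 and 165 CPM in the Ccr2-/- NK cells with mitotic genes at days 3 and 5 and at 1.56 and 0 CPM in the others.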

How the data were processed

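Single-cell libraries of ear skin cells from 4 hashtagged pools were made by the TAS-Seq method on BD Rhapsody. The deposited counts are whole reads of a gene in a cell barcode, which the authors made by trimming reads with Cutadapt, aligning them with Bowtie2 to mouse Ensembl RNA (GRCm38.p6) and dropping barcodes whose read totals lay under the inflection point of the ranked curve. A second deposited file gives counts of hashtag reads, of which 9 further hashtag columns were not used. Reads are not molecules, and near-identical gene copies share reads. The authors' methods also describe background correction and doublet removal, and neither was assumed here.

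The matrix held 548117598 reads in 8953 barcodes. A barcode was kept when its 4 hashtags together had at least 10 reads and its best hashtag reached 3 times the next. For that ratio 1 was added to each count and each hashtag was scaled by its total. Mitochondrial reads had to be at most 20% and at least 200 genes read, which left 7118 barcodes. Of the others 570 had several hashtags, 760 too few hashtag reads and 594 over 20% mitochondrial reads, in part the same barcodes. Scrublet marked 76 of 8359 barcodes (0.909%), and these were left out only as an alternative. A cell took the type whose markers had the highest mean log2(CPM + 1) relative to all cells, by a margin of 1 and with 3 markers read, and otherwise none (1202 cells).

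Reads were summed by type and pool. Types were compared with edgeR 4.0.16 (R 4.3.3) by its quasi-likelihood test after TMM scaling and filterByExpr, with the pool as a block, since same-numbered columns are cells of 1 pool. Genotype and day were fitted together. Calls were made at an adjusted p under 0.05 over all genes, and ratios of single pools used log2 of CPM plus 1. The fits were tested on simulated data. DESeq2 1.42.0, no filter, library sizes alone, a hashtag ratio of 10, a margin of 2, no block and leaving out each pool were the alternatives. Thinning to 10000 reads took the median of 21 draws. Python 3.11.15 with numpy 2.4.6, pandas 2.3.3, scipy 1.17.1, scanpy 1.11.5 and matplotlib 3.10.9 was used for the rest.

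The 40 genes, the gene lists and the tests were chosen with earlier results of these data known, and the count of mitotic genes in a cell was added after the sum of 150 CPM was seen to be passed by most cells. Named are 15 fixed members, the 3 called members with the largest log2 fold of each direction in a comparison, the 3 members with the smallest and largest share of reads in cells past 150 CPM, and the 3 genes of each further list with the largest log2 fold among those called. Other genes are named where an extreme or an exception of a list is given, and those, with Lyve1, Ly6c2, Plac8, Mrc1, Folr2 and C1qa, were picked after their values were seen.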

Additional observations from a re-analysis of the deposited data

Results flagged for a closer look

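The share of cells with mitotic genes had every Ccr2-/- pool above every WT pool in fibroblasts (Ccr2-/- minus WT 13.4 percentage points) and in macrophages (5.19 points), and every Ccr2-/- pool below every WT pool in dendritic cells (-5.90 points) and in NK cells (-7.25 points). The pools thus lay in opposite orders in these types, though in NK cells the genotypes overlapped when cells were not thinned (15.1% and 19.2% in WT, 13.6% and 16% in Ccr2-/-). By the count of replication genes the NK pools had the other order. There 16.7% and 4.17% passed in WT and 22.3% and 26.4% in Ccr2-/- (Ccr2-/- minus WT 13.9 points). The difference between the types was not tested, and 2 pools against 2 cannot give an exact permutation p below 0.33.

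Cells outside the compared types also held mitotic genes, above the 0 of 561 neutrophils. Over all pools the share was 11 of 61 keratinocytes (18.0%), 7 of 66 pericytes (10.6%), 8 of 215 mast cells or basophils (3.72%) and 50 of 598 cells without a type (8.36%). In the cells without a type the share was 1.23%, 4.65%, 13.9% and 11.5% in pool order.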

How the results depend on the processing

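Of 328 alternative values for 48 answers, 277 were in the same direction and within the limits set for a stable value, 49 shifted past them and 2 turned sign. Of 450 alternative values for single members, 340 kept direction and side of the threshold, 51 fell below it, 53 passed it and 6 turned sign. The cause was not tested for any of these. Without the replicate block, which here is the pool shared by 2 types, the members called higher in fibroblasts were 10 against macrophages and 18 against endothelial cells (median log2 fold 1.35), and 1 member was lower in T than in NK cells. Library sizes alone gave a median of 1.39 against endothelial cells and moved the median of all genes from 0.18 to -0.05. With 1 pool left out, 18 to 29 members were called against macrophages (median 1.52 to 2.13), 10 to 31 against endothelial cells (1.42 to 1.57), 0 to 0 in dendritic cells against macrophages (-0.53 to 1.05) and 0 to 3 in T against NK cells (-1.81 to -0.56). No paired analysis was possible for genotype and day because the groups share no replicate number, and leaving out a pool there left no residual degrees of freedom and was not run.

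DESeq2 called 1 member in dendritic cells against macrophages, 5 lower in T than NK cells, 32 higher in Ccr2-/- fibroblasts and 28 in Ccr2-/- macrophages. With no filter these counts were 9 for T against NK cells, 4 for fibroblasts and 27 for macrophages. The T against NK count was 1 with library sizes alone, with a hashtag ratio of 10 and with a gate margin of 2, where Ccr2-/- macrophages had 5, 18 and 6 members called. Against endothelial cells, Pcna and Tyms turned to 0.0383 and 0.0373 without a filter, and with 1 pool left out ran from -0.21 to 0.11 and from -0.14 to 0.0388, neither called.

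Without thinning, the genotype difference in the share with mitotic genes was 19.7 points in fibroblasts and 10.8 in macrophages (9.52 at 30000 reads), and fibroblasts minus endothelial cells 17.8. With 1 pool left out, the genotype difference ran from 10.8 to 16 points in fibroblasts, 2.52 to 7.85 in macrophages, -7.93 to -3.87 in dendritic cells and -9.33 to -5.16 in NK cells, fibroblasts minus macrophages from 10.4 to 13.3, fibroblasts minus endothelial cells from 7.47 to 11.8, dendritic cells minus macrophages from -1.15 to 4.56 and T minus NK cells from -12.0 to -6.00.

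For the share past 150 CPM, a read of at least 5 members in its place gave genotype differences of 24.8 points in fibroblasts and 11.2 in macrophages, 1.07 for fibroblasts minus macrophages (a change of sign), 24.2 for fibroblasts minus endothelial cells, -13.9 for dendritic cells minus macrophages, -16.1 for T minus NK cells and 4.72 for day 5 minus day 3 in T cells (a change of sign). Summing the 24 mitotic members gave -4.42 for fibroblasts minus macrophages, 5.93 for fibroblasts minus endothelial cells, -2.97 for T minus NK cells, and 11.5 in macrophages and 4.45 in T cells by day. A limit of 300 CPM gave -26.8, -7.51 and -11.9 for those pairs and 0.85 for the genotype in dendritic cells, and thinning 0.33. Splitting cells by mitotic genes and not at 150 CPM gave list medians of 3.69 (mitosis) and -0.47 (brakes) in fibroblasts and 0.89 (replication), 3.42 (mitosis), -0.27 (G1, a change of sign) and -0.16 (brakes) in NK cells.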
